A study of Homo sapiens with 6 samples.

Results

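The comparison described here is between LP-1 cells kept for months in acid medium and LP-1 cells kept at physiological pH, across all genes the arrays could measure. LP-1 is an established human line of multiple myeloma, a cancer of antibody-secreting plasma cells. It uses 4 of the study's 6 arrays: 2 of long-term acid culture (LA), at an extracellular pH (pHe) of 6.8, and 2 of the control culture (Ctrl), at pHe 7.4. The other 2 arrays are short-term acid culture (SA), also at pHe 6.8, and are given only beside the LA values. All groups share the line and a medium with 15% serum, 23.8 mM bicarbonate, 2 mM GlutaMAX and antibiotics at 37 °C in 5% CO2, and the sources used here do not name the agent that set the lower pHe. The time label is 9 months for Ctrl and for LA and 2 weeks for SA. The labels do not fully match each other, since the description of the LA samples gives 8 to 10 weeks where their time label and the study design give months. A gene was kept where it had a probe set with a single symbol, taking the brightest, and a mean over the 6 arrays no lower than 3.77, which is the median over all probe sets. This left 21070 of 33616 genes, of which 12213 were protein coding. RIMS4 (mean 3.7671) and NOVA2 (3.7674) lay just inside this limit, and ACTRT2 (3.7664) and DOC2A (3.7662) just outside it.

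The bone marrow around myeloma cells is often acidic, since tumour cells with a high glycolytic rate release lactate and protons. Cells sense outside acid through proton-sensing receptors and ion channels, and they hold their inner pH with sodium-proton exchangers, bicarbonate transporters, monocarboxylate carriers and proton channels. Acid medium is known in many cell types to slow glycolysis and to move fuel use toward the mitochondria, and plasma cells carry in addition a heavy load of immunoglobulin through the endoplasmic reticulum. Long culture leaves time both for regulation and for the outgrowth of variant cells, which arrays of whole cultures cannot tell apart.

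Values are taken as log2 intensities, so a difference of 1 is a 2-fold difference; the sources used here do not state the base, and every fold rests on it. Differences are LA minus Ctrl with limma's standard error (SE), n = 2 arrays per group, and a gene was called at a Benjamini-Hochberg adjusted p under 0.05 over all genes kept. The arrays are labelled biological replicates, but nothing says that they came from separately adapted cultures, so the p-values measure only the spread between these arrays, and pHe and culture cannot be told apart. In arrays of whole cultures, fewer cells that express a gene and less RNA per cell cannot be told apart either. The table held almost no difference between arrays numbered 1 and arrays numbered 2: replicate number took 1.18% of the sum of squares within groups, where 33.3% was expected. The p-values without a replicate block are therefore in general too small. For some of the largest differences, such as CD180 and SLAMF7, the adjusted p was nevertheless smaller with the block. The second fit takes replicate number as a block, with its counts beside the first, and "rose" and "fell" are used of genes called without the block. The label was checked against marker lists. The mean over 9 plasma cell markers (SDC1, CD38, TNFRSF17, IRF4, PRDM1, XBP1, MZB1, JCHAIN and POU2AF1) was 15.28 to 15.39, while the means over marker lists of B cells, T and NK cells, monocytes, stroma and erythroid cells lay between 3.76 and 5.26. CD3D, CD3G, CD8A, CD14, LYZ and S100A8 were under the filter, but other markers in these short lists passed it. Of those with a probe set, 4 of 5 B cell, 5 of 9 T and NK cell and 4 of 8 monocyte markers passed. So did 4 of 7 stroma and 5 of 6 erythroid markers. On the Ctrl and LA arrays BACH2 read 8.82 to 10.42, COL1A1 6.90 to 7.52 and GZMB 5.69 to 6.25. SLAMF7, TXNDC5 and SEC11C, also plasma cell genes but not among the 9, fell and are described below.

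Of the 21070 genes, 339 rose in LA and 336 fell, or 1.61% and 1.59%, which is 3.2% together. With the replicate block 162 rose and 117 fell (0.769% and 0.555%, together 1.32%), and all 279 of these were also called without it. The differences ran from falls of 7.15 to rises of 9.53 on the log2 scale, and the smallest called difference was 0.70. Rises of at least 2 log2 units were seen in 72 called genes and falls of that size in 48, and at 3 units the counts were 20 and 11. The median difference over all genes was -0.03. In 13 genes that rose the Ctrl mean was below the filter, and in 20 genes that fell the LA mean was, so that their lower group lay among the dim probe sets.

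**Figure D1:**
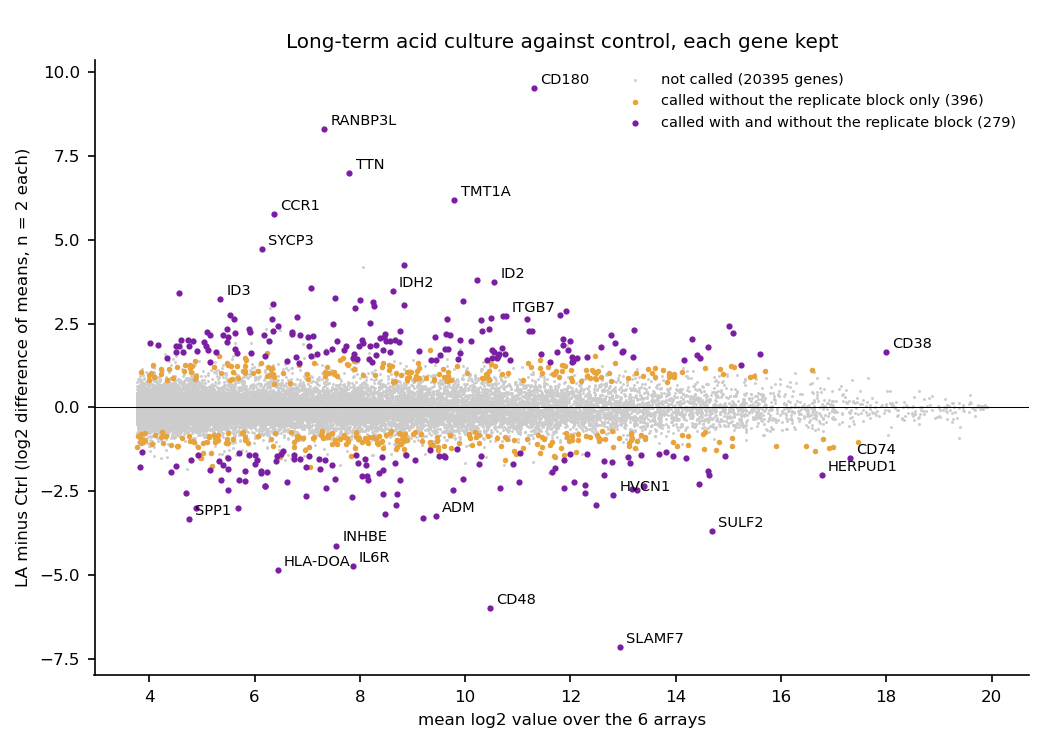
Each point is a gene kept: its mean log2 value over the 6 arrays (x) against the log2 difference LA minus Ctrl (y, means of 2 arrays each). Purple points (279) were called with and without the replicate block and orange points (396) only without it, and the differences reach 9.53 for CD180 and -7.15 for SLAMF7.

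The largest rise was in CD180, a Toll-like receptor homologue on B cells that tempers TLR4 signalling. Its log2 values were 7.85 and 7.17 on the Ctrl arrays and 17.29 and 16.80 on the LA arrays. The groups lay far apart, and the SA mean of 9.38 stood nearer to Ctrl. The difference was 9.53 ± 0.42 (SE, n = 2 per group, limma adjusted p = 0.00109, with the block 6.91e-05), or 739-fold. RANBP3L, which carries the SMAD proteins of the BMP pathway out of the nucleus, stood at 4.12 and 4.82 on Ctrl and 13.01 and 12.51 on LA arrays, a difference of 8.29 ± 0.28 (limma adjusted p = 0.000651). Its SA mean was 4.73, within the Ctrl range. TTN, the giant muscle protein titin, went from 6.22 and 5.68 to 13.22 and 12.64, a difference of 6.98 ± 0.42. TMT1A, a thiol methyltransferase of the endoplasmic reticulum, read 8.96 and 8.64 on Ctrl and 15.05 and 14.94 on LA arrays, a difference of 6.19 ± 0.19, while its SA mean of 5.59 was below Ctrl. SYCP3, a part of the synaptonemal complex of meiosis, went from 4.60 and 4.63 to 9.56 and 9.11 (4.72 ± 0.20). ZNF852, a zinc finger protein, rose by 4.26 in its brightest probe set, and the other probe sets of that gene above the filter differed by 4.16, 4.41, 4.17 and, in the dimmest, 2.19. The 30 largest protein-coding rises called with and without the block spanned 2.53 to 9.53 log2 units, with limma adjusted p at most 0.0285 without the block.

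The rest of those 30 rises are given with their known roles, and no theme was tested among them. GNPTAB (3.79) makes the mannose 6-phosphate tag of lysosomal enzymes in the Golgi, and DRAM1 (3.27) is a lysosomal membrane protein of autophagy. GOLM1 (2.67) is a membrane protein of the Golgi. DPYSL3 (3.22), a cytoskeletal protein, and ANXA6 (3.18), a membrane-binding annexin, had SA minus Ctrl differences of 2.32 and 2.38 against the same Ctrl arrays. IDH2 (3.48), ELOVL6 (2.72), CHPT1 (2.60, the last step of phosphatidylcholine synthesis), PLPP3 (2.75, which removes phosphate from lipid mediators), OSBPL6 (3.16, an oxysterol-binding protein relative) and NMRK1 (3.02, a kinase that feeds NAD synthesis) act in metabolism. S1PR1 (3.55), CCR1 (5.76), CD96 (3.41), SEMA5A (3.10) and ITGB7 (2.72) are membrane proteins of migration and contact. IGFBP7 (3.06) and SEMA3C (2.62) are secreted, and CPE (2.70) trims peptide hormones. VDR, the vitamin D receptor, read 11.55 and 11.46 on Ctrl and 14.23 and 14.30 on LA arrays (2.76 ± 0.13). IFI16 (2.65), a DNA sensor, had an LA mean of 12.03 and an SA mean of 12.15. ID1, ID2 and ID3 are inhibitors of helix-loop-helix factors and are described with the BMP pathway.

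**Figure D2:**
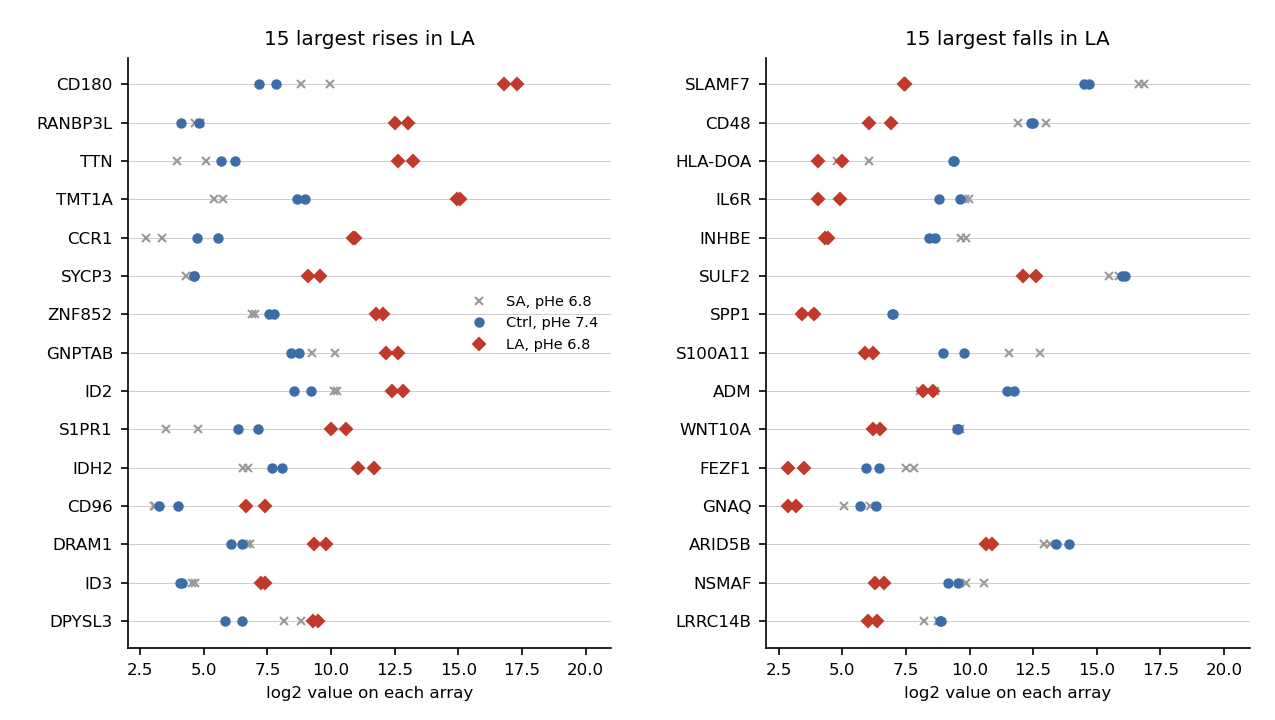
Log2 value on each of the 6 arrays (x) for the 15 largest protein-coding rises (left) and falls (right) called with and without the replicate block; circles are Ctrl, diamonds LA and crosses SA, 2 arrays each. The LA arrays lie apart from the Ctrl arrays in every gene shown. SA lies at Ctrl for some genes, such as RANBP3L and CD48, and beyond it on the far side for others, such as CCR1 and SLAMF7. For others again, such as HLA-DOA, SPP1 and ADM, SA lies near LA.

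Among surface proteins of plasma cells, SLAMF7 and CD48 fell and CD38 rose. SLAMF7, a receptor of the SLAM family and the target of elotuzumab, read 14.71 and 14.48 on Ctrl arrays and 7.47 and 7.42 on LA arrays. The difference was -7.15 ± 0.15 (limma adjusted p = 0.000125), or 142-fold lower in LA, while its SA mean was 16.77. CD48, a SLAM family ligand, read 12.42 and 12.51 on Ctrl and 6.05 and 6.90 on LA arrays (-5.99 ± 0.41), with an SA mean of 12.46. Of 11 SLAM family genes and adaptors only 3 were kept, and the remaining one, SLAMF9, differed by -0.31 and was not called. CD38, the ectoenzyme targeted by daratumumab, read 17.53 and 17.36 on Ctrl and 19.05 and 19.14 on LA arrays (1.65 ± 0.14). Of 23 plasma cell identity genes kept, 2 rose and 3 fell, beside 3.2% of all genes called, with a list median of 0.01. CD28 rose by 0.92, and TXNDC5 (-1.23) and SEC11C (-0.98), both of the secretory pathway, fell; these 3 were not called with the block. SDC1 (CD138) differed by -0.74 with a limma adjusted p of 0.0801, and the factors XBP1 (0.01), IRF4 (-0.16) and PRDM1 (0.23) and the J chain gene JCHAIN (0.01) were not called. TNFRSF17, which encodes BCMA, differed by -0.41 and GPRC5D by 0.22, neither called. Among 14 B cell genes that plasma cells shut down, BLK (2.00), BACH2 (1.42) and IRF8 (1.25) rose and CIITA fell, and only BLK and BACH2 held with the block. Dimmer probe sets above the filter differed by 0.06 for BLK and by 0.47, -0.19 and 0.25 for BACH2. Of 18 B cell receptor signalling genes 1 fell, MALT1, and of 9 Toll-like receptor genes CD180 rose and TLR7 fell by 1.04. MALT1 and TLR7 were not called with the block.

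Of 17 receptors for chemokines and lipid mediators kept, 4 rose and 1 fell, or 3 and 1 with the block. Of all genes kept 3.2% were called without the block and 1.32% with it. CCR1, a receptor for CCL3 with known roles in myeloma homing and bone disease, read 5.56 and 4.72 on Ctrl and 10.85 and 10.95 on LA arrays (5.76 ± 0.33), and its SA mean of 3.05 was below Ctrl. S1PR1, the sphingosine 1-phosphate receptor that leads lymphocytes out of tissue, read 7.13 and 6.35 on Ctrl and 10.60 and 9.98 on LA arrays (3.55 ± 0.48). Without LA replicate 1 the S1PR1 difference was 3.24 and the limma adjusted p 0.0693. P2RY10 (1.99), a receptor for lysophospholipids, and CX3CR1 (0.84, not with the block) also rose, S1PR2 fell by 1.41, and CXCR4 differed by 0.47 without a call. Of 26 integrins and adhesion molecules 3 rose and 2 fell. ITGB7, the integrin chain that binds myeloma cells to E-cadherin and MAdCAM, read 11.65 and 11.51 on Ctrl and 14.26 and 14.35 on LA arrays (2.72 ± 0.14), against an SA mean of 6.43. ITGAX (2.28) and CD44 (1.56) rose, and ITGA8 (-2.40) and ICAM1 (-1.65) fell.

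IL6R, the receptor chain for interleukin 6 and its growth signal in plasma cells, read 8.81 and 9.61 on Ctrl and 4.91 and 4.04 on LA arrays (-4.74 ± 0.37). A dimmer probe set of IL6R differed by -0.21, so the fall rests on the brighter one. Of 25 cytokine and growth factor receptors, IL6R and CSF2RB (-1.50) fell and IGF1R rose by 1.43, and only IL6R held with the block. Of all genes kept 3.2% were called without the block and 1.32% with it. Of 15 JAK-STAT genes SOCS2 (2.30), a feedback inhibitor of cytokine signalling, and STAT4 (0.95, not with the block) rose. The growth factors IGF1 and HGF rose. IGF1 read 7.48 and 7.32 on Ctrl and 9.28 and 9.18 on LA arrays (1.83 ± 0.15), and HGF read 14.10 and 14.03 against 15.998 and 15.72 (1.79 ± 0.16). A second, dim probe set of HGF differed by -0.04. Of 21 chemokines and cytokines 3 rose and 4 fell: TNFSF10, the death ligand TRAIL, was the other rise (1.26), and the falls were INHBE, SPP1, ADM and VEGFA. TNFSF10 and VEGFA were not called with the block.

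Most genes of MHC class II, which show peptides to CD4 T cells, fell. Of 19 members kept, 11 fell and none rose, against a background of 1.59% falling over all genes, and 9 fell with the block. The median of the list was -1.48, beside -0.03 over all genes kept. The transcription of these genes runs through the coactivator CIITA and a promoter element in which RFX and NF-Y bind side by side, the NF-Y site being the Y box. The promoters of 4 members that fell are printed for this reason, each from 250 bases before to 50 bases after the gene start (RefSeq, assembly GRCh38.p14, 5′ to 3′ on the strand of the gene), with each match to ATTGG or, on the other strand, CCAAT in capitals.
HLA-DOA, chr6:33009542-33009841, minus strand: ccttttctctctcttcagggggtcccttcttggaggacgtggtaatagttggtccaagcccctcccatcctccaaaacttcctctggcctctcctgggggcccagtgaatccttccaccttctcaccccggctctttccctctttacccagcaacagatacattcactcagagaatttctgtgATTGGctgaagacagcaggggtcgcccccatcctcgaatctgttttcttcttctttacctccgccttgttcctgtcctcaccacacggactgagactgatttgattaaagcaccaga
HLA-DMA, chr6:32953048-32953347, minus strand: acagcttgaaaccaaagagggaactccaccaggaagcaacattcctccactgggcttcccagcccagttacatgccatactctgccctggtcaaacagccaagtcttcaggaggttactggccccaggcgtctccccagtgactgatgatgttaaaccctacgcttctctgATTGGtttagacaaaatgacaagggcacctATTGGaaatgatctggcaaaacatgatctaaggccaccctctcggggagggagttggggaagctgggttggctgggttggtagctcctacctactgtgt
HLA-DQA1, chr6:32637156-32637455, plus strand: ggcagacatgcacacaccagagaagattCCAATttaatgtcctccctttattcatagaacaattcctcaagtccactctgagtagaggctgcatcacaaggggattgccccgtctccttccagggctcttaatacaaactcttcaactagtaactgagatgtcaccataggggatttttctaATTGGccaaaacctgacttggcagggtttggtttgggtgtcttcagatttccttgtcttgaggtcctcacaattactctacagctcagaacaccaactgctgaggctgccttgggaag
CD74, chr5:150412861-150413160, minus strand: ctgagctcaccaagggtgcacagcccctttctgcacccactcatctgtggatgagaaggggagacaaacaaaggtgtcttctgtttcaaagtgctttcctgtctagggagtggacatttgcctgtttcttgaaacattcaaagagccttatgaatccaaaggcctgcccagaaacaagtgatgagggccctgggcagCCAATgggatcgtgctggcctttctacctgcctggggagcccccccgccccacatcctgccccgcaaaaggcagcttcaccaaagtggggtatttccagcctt
The 5 letters were found in 13 of 16 class II promoters at hand and in 9 of the 10 of members that fell, the exception being HLA-DPA1. They were in 37.1% of the promoters of 11160 genes kept, so the match is a description and not a binding site.

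HLA-DOA, a chain of the DO protein that restrains peptide loading, read 9.36 and 9.40 on Ctrl and 4.05 and 5.00 on LA arrays. The difference was -4.86 ± 0.47 (limma adjusted p = 0.008), and its SA mean was 5.41, near LA. HLA-DQB1 read 13.33 and 13.31 against 10.55 and 10.99 (-2.55 ± 0.21), HLA-DQA1 differed by -2.47, and HLA-DRB1 by -2.44. HLA-DMA, part of the peptide exchange factor, read 14.41 and 14.25 against 11.68 and 12.27 (-2.35 ± 0.27). In these 4 genes the SA mean lay between 12.74 and 13.98, above both LA arrays in each gene. HLA-DPB1 (-2.28), HLA-DQA2 (-2.22), HLA-DPA1 (-2.01), HLA-DRB5 (-1.44) and the invariant chain CD74 (-1.51) fell too. CIITA read 14.90 and 15.28 on Ctrl and 13.86 and 13.84 on LA arrays (-1.24 ± 0.22), and it was not called with the block (limma adjusted p = 0.0992), nor was HLA-DRB5. HLA-DRA (-0.90, limma adjusted p = 0.0542), HLA-DMB (-1.48), HLA-DQB2 (-0.82), HLA-DOB (-0.04) and RFX5 (-0.20) did not pass. Near-identical class II genes can share probes, so single values within the DRB, DQ and DP families are uncertain. None of the 19 MHC class I genes kept was called without or with the block, and their median was -0.12.

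Several genes of the BMP pathway rose. Over all genes kept 1.61% rose and 1.59% fell (0.769% and 0.555% with the block). BMPs are ligands of the TGF-beta family that signal through SMAD1, SMAD5 and SMAD9 to switch on the ID genes, and in plasma cells they are known to restrain growth. Of 36 members kept, 8 rose and 1 fell (6 and 1 with the block), around a list median of 0.05. ID2 read 9.20 and 8.53 on Ctrl and 12.38 and 12.84 on LA arrays (3.74 ± 0.27). ID3 read 4.07 and 4.15 against 7.40 and 7.26 (3.22 ± 0.14), and ID1 7.08 and 6.84 against 9.59 and 9.38 (2.53 ± 0.19). In all 3 the SA mean (10.17, 4.60 and 8.16) lay between the groups, while ID4 differed by 0.32 and was not called. The receptor BMPR2 (2.14 ± 0.33) and the antagonist NOG, noggin (2.35 ± 0.21), rose, as did SKIL (1.08) and SMAD1 (0.77), which were not called with the block. The member that fell was INHBE, an activin chain secreted mostly by liver and known as a stress-response target. It read 8.63 and 8.40 on Ctrl and 4.32 and 4.45 on LA arrays (-4.13 ± 0.16), with an SA mean of 9.77. Of 28 Wnt genes 3 fell, WNT10A (-3.17), ROR1 (-0.88) and ROR2 (-0.73), with WNT10A alone called in both fits. Of 23 Notch genes and of 23 PI3-kinase, RAS and MAP kinase genes none was called in either fit.

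**Figure D3:**
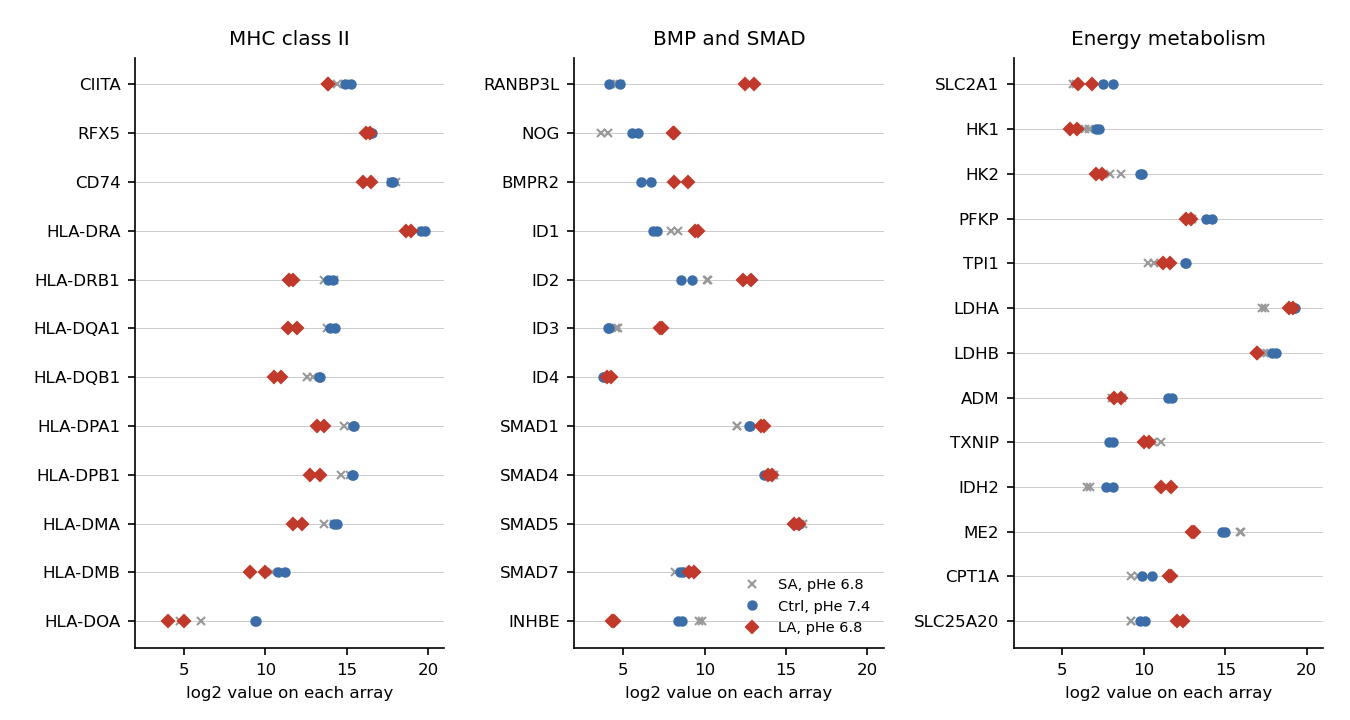
Log2 value on each array (x) for members of MHC class II, of the BMP pathway and of energy metabolism; circles are Ctrl, diamonds LA and crosses SA, 2 arrays each. Most class II genes lie lower in LA than in Ctrl, ID1, ID2 and ID3 lie higher, and HK2, HK1 and ADM lie lower while IDH2 and SLC25A20 lie higher in LA than in Ctrl.

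Some glycolysis and hypoxia genes fell. Over all genes kept 1.59% fell and 1.61% rose (0.555% and 0.769% with the block). Of 27 glycolysis genes kept 5 fell and none rose, 2 with the block, and the list median was -0.30. The hexokinases, which trap glucose in the cell, were among them. HK2 read 9.76 and 9.88 on Ctrl and 7.04 and 7.44 on LA arrays (-2.59 ± 0.26), and HK1 7.22 and 7.04 against 5.49 and 5.87 (-1.45 ± 0.19). PFKP (-1.23), TPI1 (-1.17) and LDHB (-1.03) fell without the block only. LDHA, which makes lactate, differed by -0.20 without a call, and the glucose transporter SLC2A1 by -1.42 with a limma adjusted p of 0.0852. TPI1 and LDHB lie in the part of chromosome 12 whose genes were lower together, described below, and the part of this in their fall was not tested. Of 33 genes of the hypoxia response 6 fell and 2 rose (4 and 1 with the block), and the list median was -0.39. ADM, the vessel peptide adrenomedullin, read 11.76 and 11.49 on Ctrl and 8.58 and 8.17 on LA arrays (-3.24 ± 0.25), and its SA mean of 8.35 lay between the LA arrays. The adenylate kinase AK4 (-2.55), the mitophagy receptor BNIP3 (-1.66), STC2 (-1.49), NDRG1 (-1.39) and VEGFA (-0.84) fell, STC2 and VEGFA without the block only. The AK4 call was lost without LA replicate 1, at a difference of -2.52 and a limma adjusted p of 0.0873, and without LA replicate 2 (-2.58, limma adjusted p = 0.0698). The rises were TXNIP, which limits glucose uptake (7.84 and 8.11 on Ctrl, 10.02 and 10.30 on LA arrays, 2.19 ± 0.21), and its relative ARRDC3 (1.01, not called with the block).

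Hypoxia-inducible factors bind the core letters ACGTG, and the promoters of AK4 and BNIP3 are shown as the members that fell and carry them, with the matched letters in capitals (RefSeq, GRCh38.p14, same window as above). In each, the match on one strand overlaps a match on the other.
AK4, chr1:65147302-65147601, plus strand: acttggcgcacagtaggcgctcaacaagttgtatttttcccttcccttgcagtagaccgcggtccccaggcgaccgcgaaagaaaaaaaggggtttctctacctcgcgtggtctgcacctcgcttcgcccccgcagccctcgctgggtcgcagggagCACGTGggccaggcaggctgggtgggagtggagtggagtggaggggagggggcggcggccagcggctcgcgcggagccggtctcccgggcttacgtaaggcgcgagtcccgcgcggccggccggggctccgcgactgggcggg
BNIP3, chr10:131981874-131982173, minus strand: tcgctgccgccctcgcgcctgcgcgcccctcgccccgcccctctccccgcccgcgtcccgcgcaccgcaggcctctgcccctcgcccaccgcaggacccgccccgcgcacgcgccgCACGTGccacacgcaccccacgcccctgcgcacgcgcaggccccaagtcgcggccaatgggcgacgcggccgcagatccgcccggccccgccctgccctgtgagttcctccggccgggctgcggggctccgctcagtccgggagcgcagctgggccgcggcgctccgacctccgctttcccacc
These letters were in 2 of the 4 promoters at hand of members that fell, in 14 of 28 of the whole list, and in 25.8% of all promoters searched.

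A few mitochondrial fuel genes differed, beside 3.2% of all genes called (1.32% with the block). IDH2, the mitochondrial isocitrate dehydrogenase that makes NADPH, read 8.08 and 7.68 on Ctrl and 11.04 and 11.68 on LA arrays (3.48 ± 0.26), with an SA mean of 6.63. Of the 25 genes of the tricarboxylic acid cycle it was the only rise, while malic enzyme ME2 (-1.89), the aconitase ACO1 (-1.54) and DLD (-0.94) fell, the last not with the block. None of 64 oxidative phosphorylation genes was called in either fit, with differences from -0.74 to 1.03 and a median of 0.09. Of 20 genes of mitochondrial biogenesis and dynamics, DNM1L fell by 1.03, without the block only. Of 31 fatty acid oxidation genes 3 rose and none fell. SLC25A20, the carnitine carrier, read 10.04 and 9.78 on Ctrl and 12.04 and 12.43 on LA arrays (2.33 ± 0.18) and held with the block. CPT1A, the gate of the carnitine shuttle (1.41), and ACAD10 (1.02) did not. ELOVL6, which lengthens palmitate, was the only one of 18 fatty acid synthesis genes that rose, from 10.37 and 10.21 to 13.09 and 12.92. Of 24 cholesterol genes MVD (-0.96) and TM7SF2 (-0.93) fell, without the block only. PSAT1 (-1.46), of serine synthesis, and BCAT1 (-1.42), of branched-chain amino acid use, fell among 22 amino acid enzymes in both fits. Of 23 amino acid transporters SLC7A11 (-1.77) and SLC3A2 (-1.28), which together exchange cystine and glutamate, fell and SLC6A9, a glycine carrier, rose, all without the block only.

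The genes that sense or move acid were looked at next. Of 10 acid sensors kept none was called in either fit, with differences between -0.39 and 0.40, and the proton-sensing receptor GPR65 differed by -0.18. Among 22 transporters of acid and bicarbonate there was 1 rise and 1 fall, in both fits, beside 3.2% of all genes called without the block and 1.32% with it. The fall was in HVCN1, the voltage-gated proton channel, at 13.08 and 12.73 on Ctrl and 9.94 and 10.63 on LA arrays (-2.62 ± 0.27), and its SA mean was 15.26, above Ctrl. The rise was in EMB, embigin, a chaperone of monocarboxylate carriers, at 11.08 and 11.22 on Ctrl and 13.03 and 13.02 on LA arrays (1.87 ± 0.14). None of 22 subunits of the V-ATPase, the pump that acidifies lysosomes, was called in either fit. Of 31 lysosome genes GNPTAB rose, and SCARB2 (-1.56), M6PR, NEU1 and LAMP2 fell, SCARB2 alone of these falls with the block. The list median was -0.28.

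Some genes of protein stress fell, beside 1.59% of all genes kept (0.555% with the block). Of 35 genes of the integrated stress response, which ATF4 drives when amino acids run short or the endoplasmic reticulum is strained, 8 fell and none rose, 2 with the block (INHBE and PSAT1), and the median was -0.39. The others were SLC7A11, STC2, SLC3A2, CHAC1 (-1.20), EIF2AK3 (-1.11) and SESN2 (-0.92). ATF4 itself differed by -0.39 and DDIT3 by -0.01, neither called. Of 36 genes of the unfolded protein response 3 fell. HERPUD1, which helps to clear misfolded proteins from the endoplasmic reticulum, read 17.19 and 17.17 on Ctrl and 15.08 and 15.22 on LA arrays (-2.03 ± 0.14), with an SA mean of 17.99, and ERN1 (-1.42) and CREB3L2 (-0.82) fell without the block only. Of 23 heat shock chaperones 1 fell (FKBP4), of 31 antioxidant genes 1 fell, the cystine carrier SLC7A11 again, and of 34 autophagy genes 1 fell (GABARAPL1), none of them with the block. No gene of the 32 proteasome or 32 cytosolic ribosomal proteins was called in either fit, and none of 25 BCL2 family and death receptor genes.

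Some genes of growth and division were called, beside 3.2% of all genes (1.32% with the block). Of 42 mitosis genes ANLN rose by 1.27 and MYBL2 fell by 1.02, and of 39 replication genes CCNE2 (1.29), E2F2 (1.24) and CLSPN (0.83) rose, none called with the block. A dimmer probe set of ANLN differed by 0.11. The list medians were 0.21 and 0.15. Of 13 cyclins and inhibitors of G1 CDKN2A rose by 1.32, also without the block only. Of 45 replication-dependent histone genes 3 rose, H4C4 (1.98 ± 0.14), H4C9 (1.66 ± 0.18) and H2BC9 (1.18 ± 0.16, not with the block). The median of the 45 was 0.39, beside -0.03 over all genes kept. Histone genes of a class resemble each other closely, so their probe sets may share signal. MYC differed by -0.34 without a call, and of 29 genes of MYC and ribosome making MYCN alone fell (-1.45). Of 22 immediate early genes IER2 rose by 1.31 (not with the block) and SPRED2, a brake of RAS signalling, fell by 2.16. Among 14 oncogenes of myeloma translocations MAF rose, from 12.59 and 12.65 to 14.30 and 14.54 (1.80 ± 0.17). NSD2, a histone methyltransferase, differed by 1.02 with a limma adjusted p of 0.063, and of 33 lysine methylation genes the demethylase KDM5B fell by 1.45. Of 17 cancer-testis and meiosis genes SYCP3 and SMC1B (1.59) rose.

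Of 16 secreted and matrix genes of bone disease kept, 3 fell and 1, HGF, rose, the same in both fits, with a median of -0.62. Over all genes kept 3.2% were called (1.32% with the block). SULF2, which trims sulfate from heparan chains, read 16.10 and 15.97 on Ctrl and 12.09 and 12.59 on LA arrays (-3.69 ± 0.22), while a probe set of SULF2 under the filter differed by -0.08. SPP1, osteopontin, read 6.96 and 6.98 against 3.41 and 3.88 (-3.32 ± 0.23), and SDC3 differed by -1.79. The LA values of SPP1 lie around the filter value, and its SA mean was 3.65. Of 11 S100 genes S100A11 (-3.31) and S100A10 (-1.12) fell. S100A11 was not called without LA replicate 1 (-3.47, limma adjusted p = 0.0528) or without LA replicate 2 (-3.15, limma adjusted p = 0.064). S100A10 was not called with the block. Of 28 NF-kappaB genes ICAM1 and CD74 fell. Of 30 interferon-stimulated genes 4 rose, IFI16, a DNA sensor (2.65), IRF1 (1.73), PARP9 (1.35) and IRF9 (1.02), the last not with the block, at a list median of 0.06. Of 24 genes that mark drug targets or drug response in myeloma, ITGB7, CD38 and the glucocorticoid receptor NR3C1 (0.87) rose, and SLAMF7, CD74 and the drug exporter ABCC1 (-0.88) fell. NR3C1 and ABCC1 were not called with the block, and a dimmer probe set of ABCC1 differed by 0.13. No listed marker of T and NK cells (6 kept), monocytes (5) or stroma (7) was called in either fit, and of 8 erythroid and platelet markers HBD rose by 1.21 without the block only.

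Over the 56 lists 1248 distinct genes were kept, of which 55 rose and 70 fell (33 and 37 with the block). The share called, 10%, stands beside 3.2% of all genes, but the lists were chosen with results of these data known, so it is no independent evidence.

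**Figure D4:**
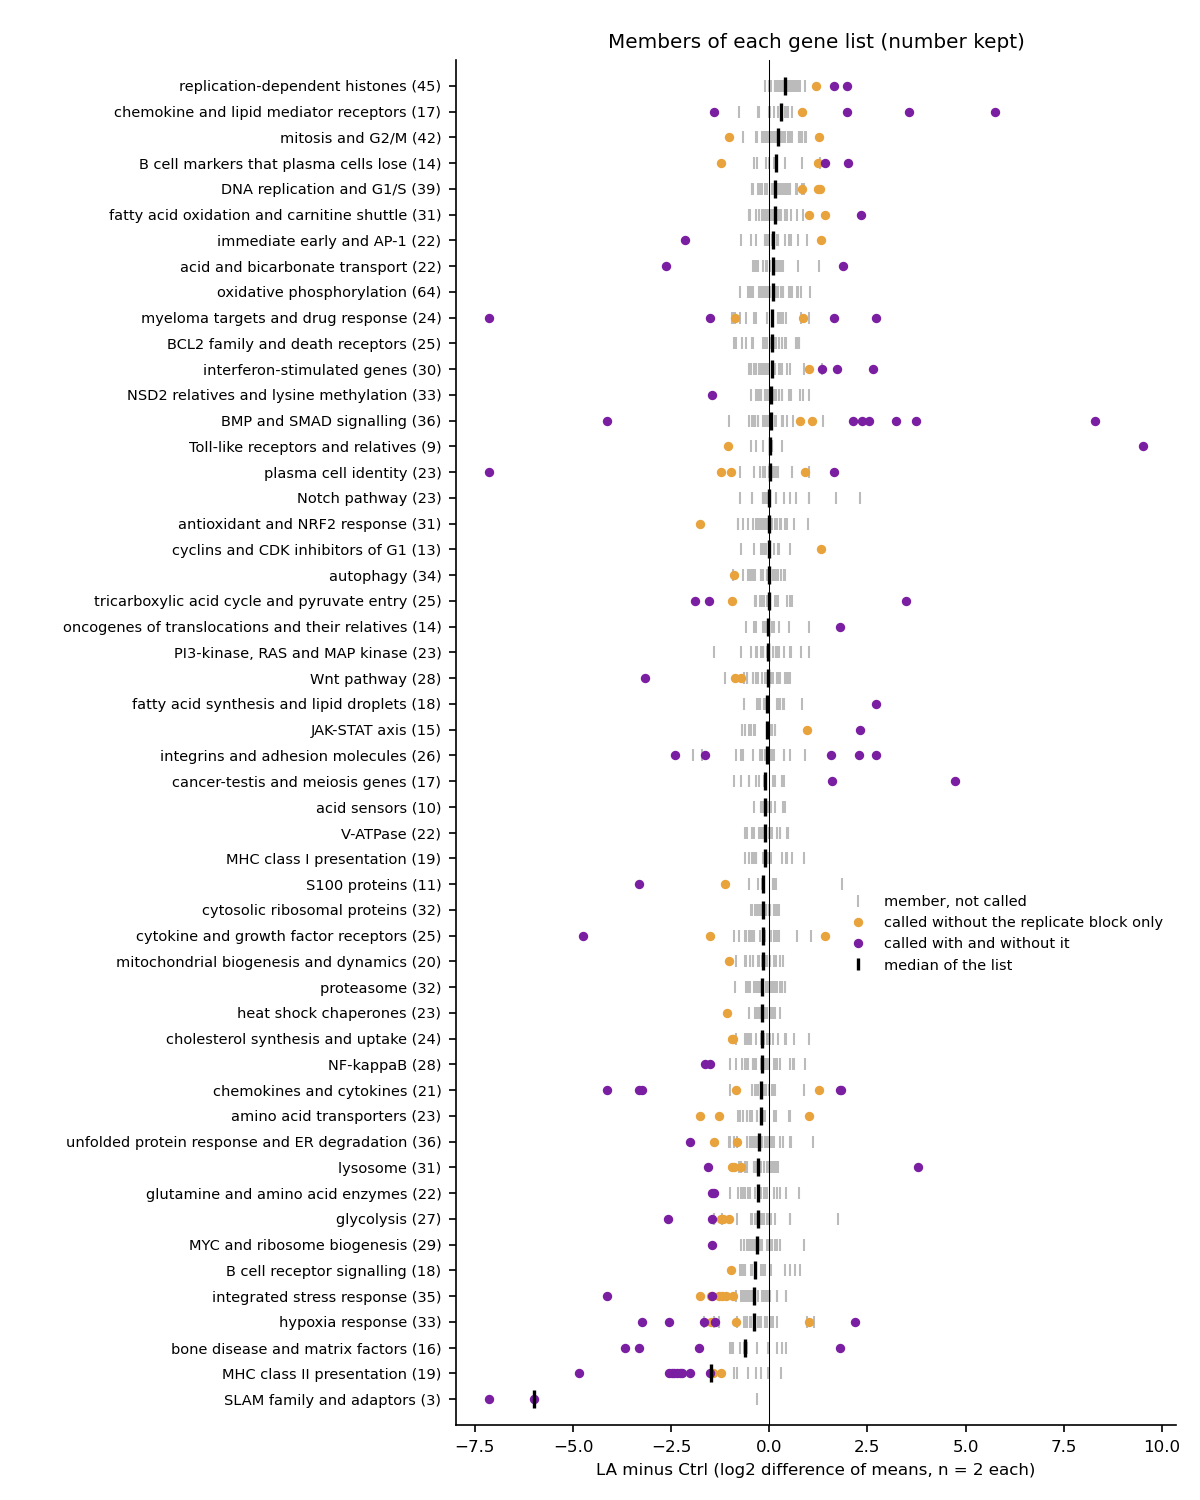
Log2 difference LA minus Ctrl (x) of each member kept, by gene list (y, number kept in brackets), sorted by the list median (black bar); purple dots were called with and without the replicate block, orange dots only without it, grey ticks were not called. The MHC class II list has its median at -1.48 and the histone list at 0.39; only the SLAM family, with 3 members kept, has a lower median than MHC class II.

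The 30 largest protein-coding falls called in both fits spanned 2.33 to 7.15 log2 units. Beside those already named they held FEZF1 (-3.01), a zinc finger repressor, ARID5B (-2.91), a chromatin cofactor, and ETV5 (-2.35), an ETS factor. GNAQ (-2.99), a G protein subunit, and NSMAF (-2.90), an adaptor of TNF signalling, fell as well, but a dimmer probe set of GNAQ differed by 0.52. Adhesion and matrix were represented by BCAR1 (-2.46), NRCAM (-2.41) and LOXL4 (-2.36). LRRC14B (-2.67), the acetylcholine receptor subunit CHRNA6 (-2.58), ZC4H2 (-2.45) and RELL1 (-2.33) completed them.

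Genes that encode no protein were called as well. Of 1359 long non-coding RNAs 23 rose and 4 fell (14 and 1 with the block), while 277 of 12213 protein-coding genes rose and 303 fell (139 and 111). LINC00649 read 10.44 and 10.69 on Ctrl and 13.59 and 13.30 on LA arrays (2.88 ± 0.18), and LINCMD1 differed by 2.65. ZBED10P (2.98), a transcribed pseudogene, and HERC2P7 (2.42) rose with RNU6-403P (2.63). The largest falls outside the protein-coding genes were LINC01055 (-2.64), ANKRD36BP2 (-2.40), RNU2-63P (-1.65), HLA-DPB2 (-1.44) and RNU6-294P (-1.42). The calls of LINCMD1 and RNU6-403P were lost without the filter on dim probe sets, at limma adjusted p of 0.0556 and 0.0551. Of 698 microRNA genes 7 rose and 3 fell, and 2 rises held with the block. These shares are below those over all genes, of which 1.61% rose and 1.59% fell (0.769% and 0.555% with the block). MIR4421 read 3.81 and 4.18 on Ctrl and 6.04 and 6.26 on LA arrays (2.16 ± 0.26), and MIR3133 differed by 1.82. The probe sets are annotated to the gene and do not tell the precursor from the mature form. The mature forms (RefSeq, GRCh38.p14) do not share a seed, bases 2 to 8, shown in capitals.
hsa-miR-4421, chr1:51059879-51059900, plus strand: aCCUGUCUguggaaaggagcua
hsa-miR-3133, chr2:241477914-241477935, plus strand: uAAAGAACucuuaaaacccaau

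Some called genes lay beside each other on the genome. Runs were taken of genes called without the block in one direction, with at most 3 kept genes between them. In all 71 runs were found, 52 of them of 2 genes, 14 of 3, 2 of 4, 2 of 5 and 1 of 7. No runs were taken from the calls with the block. The longest was the class II stretch from HLA-DRB9 to HLA-DQA2 on chromosome 6, and another stretch from HLA-DMA to HLA-DPB2 held 5 that fell. Another run of 5 that fell, with no kept gene between them, was on chromosome 12: PYROXD1 (-1.25), RECQL (-1.57), GOLT1B (-1.46), SPX (-1.94) and LDHB (-1.03). The 41 neighbouring protein-coding genes that include this run held 7 that fell, and 1 of those was called with the block. CD48 and SLAMF7, on chromosome 1, are next to each other among the genes kept. CHPT1 (2.60), SYCP3 (4.72) and GNPTAB (3.79) form a run of rises on chromosome 12, OSBPL6 (3.16), TTN (6.98) and CCDC141 (1.41) one on chromosome 2, and MAF with its neighbouring RNAs MAFTRR (1.93) and LINC01229 (2.18) one on chromosome 16. NMRK1 (3.02), OSTF1 (2.15) and GCNT1 (1.09) form a run of rises on chromosome 9 with 1 kept gene between them that was not called. CPEB2 (1.24), FBXL5 (0.88) and CD38 form one on chromosome 4 with 3 such genes. In the chromosome 4 run only CD38 was called with the block.

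Neighbouring protein-coding genes were also taken in stretches of about 40, and chromosome 12 held the lowest stretch median. Its medians were at most -0.10 in the first 9 stretches, reaching -0.45, and between 0.14 and 0.32 in stretches 11 to 16. Over all 305 stretches of the genome the range was -0.45 to 0.34, with 5% below -0.21 and 5% above 0.16. Over all 12213 protein-coding genes kept 303 fell and 277 rose (111 and 139 with the block), and the median was -0.044. In the first part of chromosome 12, 258 of 369 genes were below 0, and 35 fell and 5 rose (6 and 5 with the block). In the last part 165 of 240 genes were above 0, and 15 rose and 2 fell (8 and 1 with the block). The medians of the 2 parts were -0.25 and 0.19 on LA array 1 and -0.27 and 0.18 on LA array 2. The SA arrays, set against the same Ctrl arrays, gave -0.20 and 0.15. The division into these 2 parts was made after the medians were seen and has no test. The first part holds TPI1, LDHB, BCAT1, DNM1L, FKBP4, M6PR, GABARAPL1 and INHBE among the genes that fell, and the last part SYCP3, GNPTAB, CHPT1, DRAM1, SOCS2, IGF1 and ACAD10 among those that rose. In the other direction, TMT1A, VDR, ITGB7, ARHGDIB (2.28) and PKP2 (2.17) rose in the first part, and HVCN1 and SLC41A2 (-0.74) fell in the last. Outside chromosome 12, high medians were found in stretches 9 and 10 of the 30 of chromosome 1 (0.32 and 0.34), the first of chromosome 4 (0.28) and the histone stretch of chromosome 6 (0.29). Low ones were found in chromosomes 7 (-0.32), 16 (-0.28), 14 (-0.28) and 2 (-0.26). The number of copies of these regions was not measured, and its part in the differences was not tested.

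**Figure D5:**
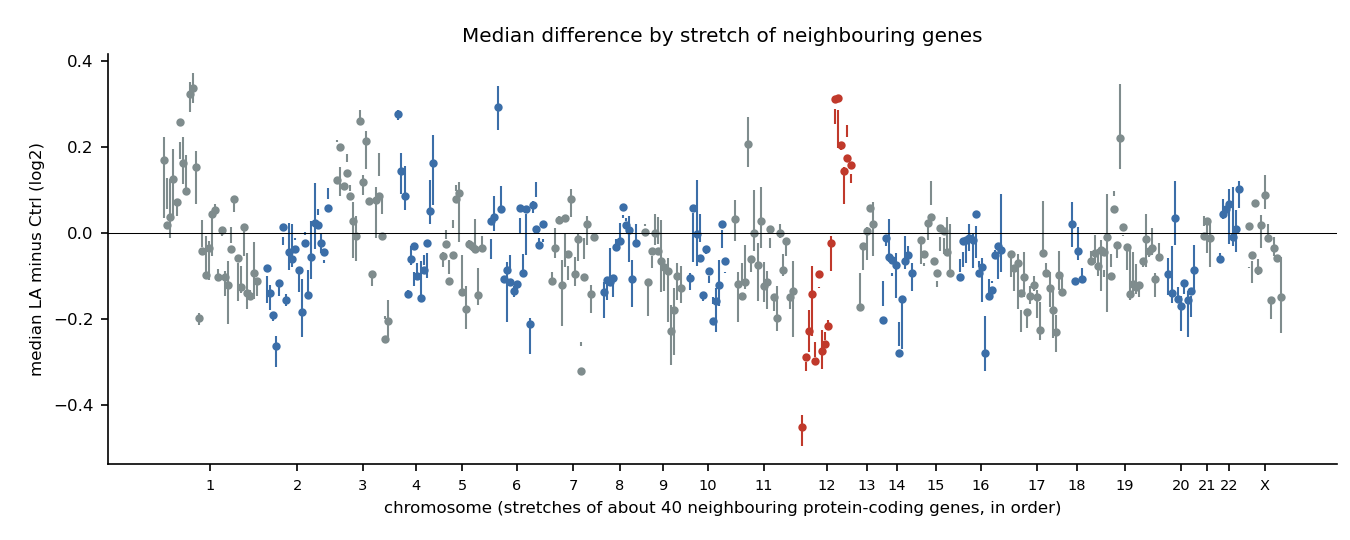
Median log2 difference LA minus Ctrl (y) of each stretch of about 40 neighbouring protein-coding genes, in genome order by chromosome (x); points are medians of the group difference, and vertical lines span the medians of the 2 LA arrays taken singly against the Ctrl mean. Chromosome 12, in red, runs from -0.45 in its first stretch to 0.32 in a later one.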

How the data were processed

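RNA of 6 LP-1 samples was amplified and hybridized as biotin-labelled cDNA to single-colour arrays. The authors deposited 1 value per probe set and array, taken here as log2 intensity; per the submitters' processing notes, RMA and the Transcriptome Analysis Console were used, with no versions. The sources used here state neither the log base nor the array's genome build, and values reach 20.02.

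Of 135574 probe sets 36176 carry 1 gene symbol, 1119 several and 98279 none. Of 25555 with a gene ID 25516 matched the RefSeq gene table of GRCh38.p14, which gave symbols, types and gene order. Differences were fitted with limma 3.58.1 in R 4.3.3 over all 6 arrays (group means, moderation without trend, two-sided, Benjamini-Hochberg over 21070 genes). Replicate number as a block was an alternative: deviations of same-numbered arrays correlated at -0.57, -0.47 and -0.41 between groups, but a table with the replicate difference removed over 3 groups would give such values by construction, so whether the numbers pair the samples cannot be told. Since the table holds almost no replicate difference, about 2 residual degrees of freedom remain where the fit without the block counts 3. The p-values without the block are therefore in general too small. The moderation adds 3.06 degrees of freedom without the block and 6.00 with it, and some of the largest differences have a smaller adjusted p with the block. On simulated data made in that way a larger share of the calls was false without the block than with it. The simulated spreads came from the block fit and the replicate difference was removed. That outcome was therefore built in and says nothing about whether the deposited values were made in that way. An exact permutation test of 2 against 2 arrays cannot go below p = 0.333, and the number of arrays limits the precision.

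The members and lists were chosen with earlier results of these data known. Genes named are the 30 largest rises and falls of protein-coding genes called in both fits, the 5 largest of other types, the called list members, and members needed to say what a list holds. Neighbours and the genes of chromosome 12 were named after their values were seen. Promoters and microRNAs come from RefSeq (GRCh38.p14). Other alternatives were the 4 arrays alone, no filter, a mean of at least 6, the mean of a gene's probe sets, quantile normalization, median centring, a trend with robust moderation, and leaving out each array.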

Additional observations from a re-analysis of the deposited data

Results flagged for a closer look

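Of the 70 genes chosen by size within their gene type and called in both fits, 15 are given here. In each, the LA and SA arrays lay on opposite sides of Ctrl, and SA minus Ctrl was also called without the replicate block. The difference between LA and SA passed limma's test too (adjusted p at most 0.00141 without the replicate block). ZNF852 met these conditions but is not among the 15. Its SA minus Ctrl difference was smaller, at -0.71 (limma adjusted p = 0.0402). Further genes, such as TTN and IL6R, lay on opposite sides without a call for SA minus Ctrl and are not listed. LA minus Ctrl and SA minus Ctrl share the Ctrl arrays, so each gene's own values are given and no explanation is weighed.

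The genes above Ctrl in LA and below it in SA were these. LA exceeded SA by 9.41 log2 units in TMT1A (6.19 above Ctrl in LA, -3.21 from Ctrl in SA), by 7.87 in ITGB7 (2.72 and -5.15), by 7.85 in CCR1 (5.76 and -2.09) and by 6.13 in S1PR1 (3.55 and -2.58). It exceeded SA by 5.16 in ZBED10P (2.98 and -2.19), by 4.73 in IDH2 (3.48 and -1.25), by 4.64 in VDR (2.76 and -1.88) and by 4.15 in ELOVL6 (2.72 and -1.44).

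The genes below Ctrl in LA and above it in SA were SLAMF7, S100A11, INHBE, ANKRD36BP2, HVCN1, FEZF1 and ITGA8. LA minus SA was -9.32 in SLAMF7 (-7.15 from Ctrl in LA, 2.17 in SA), -6.10 in S100A11 (-3.31 and 2.79) and -5.39 in INHBE (-4.13 and 1.26). It was -5.04 in ANKRD36BP2 (-2.40 and 2.64), -4.97 in HVCN1 (-2.62 and 2.35), -4.49 in FEZF1 (-3.01 and 1.48) and -4.32 in ITGA8 (-2.40 and 1.92).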

How the results depend on the processing

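None of the 164 called genes fixed by the rule for named genes changed direction under the alternatives run. The counts depend most on the replicate block and on the number of arrays. With the replicate block 279 genes were called in place of 675 (162 higher, 117 lower) and 70 list members in place of 125, and whether the numbers pair the samples cannot be told. Calls made without the block only are less well supported, since p-values without it are in general too small. Leaving out any 1 of the 4 arrays (Ctrl replicate 1 or 2, LA replicate 1 or 2) gave 195 to 253 genes, 114 to 147 higher and 81 to 106 lower, with 56 to 69 list members; with 1 array left, that array is assumed to vary like the others, and fewer samples are fitted. The count was 557 without the filter and 937 with a mean of at least 6, and between 629 and 697 under the other alternatives. The median of chromosome 17, the lowest, went from -0.129 to -0.172 under the stricter filter, -0.113 after quantile normalization and -0.112 after centring, and lay between -0.144 and -0.120 with 1 array left out. The largest genes described were chosen as called in both fits, so their call with the block was fixed by that choice. With 1 array left out, beside those given in the report, IGFBP7 lost its call without Ctrl replicate 1 (2.98), Ctrl replicate 2 (3.13) or LA replicate 2 (2.57), SEMA5A without LA replicate 1 (3.11) or 2 (3.08), ITGA8 without Ctrl replicate 1 (-2.18) or LA replicate 2 (-2.23), GNAQ without LA replicate 2 (-2.84) and ETV5 without LA replicate 1 (-2.18). HLA-DPB2, LINCMD1, RNU6-403P, RNU6-294P, RNU2-63P and ANKRD36BP2 each lost it without at least 1 array. Signal over background limits what is said of genes whose lower group lies near the filter.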

Other observations

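Some called genes outside the lists were neighbours with related roles, named here after their values were seen. The rises and falls here are calls without the block. IFI16 and its neighbour AIM2 (1.46), both sensors of DNA, rose together, but AIM2 was not called with the block. The inflammatory caspase CASP4 (1.03) rose with its relatives CARD16 (1.13) and CARD17P (0.997). Between them CASP1 and CASP1P2 were kept and not called, and neither CASP4 nor CARD16 was called with the block. The ATP-gated channels P2RX7 (1.36) and P2RX4 (1.48) rose side by side. SLFN11 (1.69), which blocks stalled replication forks, and SLFN13 (1.55) rose with SLFN12, which was not called, between them. PARP9 and DTX3L (1.66), which form a complex in the interferon response, rose together. RUNX2 (0.97), the factor of bone formation, rose beside SUPT3H (1.70), and IGFBP3 (2.17) near TNS3 (1.36). The DNA methyltransferase DNMT3B fell by 2.04.

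Of 45317 probe sets above the filter without a single gene symbol, 19 were higher in LA and 0 lower by limma. With the replicate block 0 were called in either direction. At an unadjusted p under 0.05 by limma there were 5736 without the block, 1995 of them lower, and 2837 with it. Of the 21070 genes kept, 4224 had such a p without the block. An unadjusted limit also passes probe sets that do not differ, and p-values without the block are in general too small. These counts are therefore not numbers of changed probe sets.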
